A study of Mus musculus with 4 samples.

Results

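Ttr, Rbp4, Afp, Trf, Fga, Fgb, Fgg and F2, genes for plasma proteins that the visceral endoderm makes before the liver forms, were followed in mouse embryos with and without Ddx6. They were chosen by symbol from the 24421 genes of the count table. All 8 were found, and all 8 were among the 14393 genes kept by the filter of at least 10 reads in at least 1 library. Each of the 8 had a lower level in both knockout (KO) libraries than in both wild-type (WT) libraries, as did 17.6% of all genes kept.

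The visceral endoderm is the outer epithelium of the early postimplantation mouse embryo and later lines the yolk sac. It takes up maternal proteins by endocytosis and secretes many of the proteins that the fetal liver makes afterwards. Ttr encodes transthyretin, which carries thyroid hormone and holds the retinol-binding protein encoded by Rbp4. Afp encodes alpha-fetoprotein, the main fetal plasma protein, and Trf encodes transferrin, the iron carrier. Fga, Fgb and Fgg encode the α, β and γ chains that together make fibrinogen, and F2 encodes prothrombin, whose active form thrombin cleaves fibrinogen to fibrin. Ddx6 encodes an RNA helicase that represses the translation of mRNAs and promotes their decay.

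RNA sequencing of polyadenylated transcripts was done on embryos of the ICR strain. WT embryos gave 1 library at E7.5 and 1 at E8.5, and Ddx6 -/- embryos gave 2 libraries at E8.5, KO1 and KO2, in which a floxed exon of Ddx6 had been removed in the germ line with CAG-Cre. KO1 pooled an embryo from before head-fold formation with one that had head folds, whereas all embryos of KO2 had yet to form head folds, so both KO pools were delayed in form. The comparison with E8.5 WT was therefore at equal age and that with E7.5 WT at an earlier stage. The labels describe whole embryos, whereas the methods of the study state that extraembryonic tissue or yolk sac was used for genotyping. How much visceral endoderm each library kept is not given in the sources used here, and in bulk RNA fewer cells of a type and less RNA per cell cannot be told apart.

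Total counts were 8198402 in KO1 and between 12008252 and 12562640 in the other 3 libraries. Ddx6 itself had 2943 reads in WT at E7.5 and 5715 at E8.5, against 706 in KO1 and 929 in KO2. Levels were expressed in CPM, the read count scaled to a common library size, after normalization by a trimmed mean of M-values (TMM). A log2 change is a difference of log2 CPM with a prior count of 2, and folds are ratios of CPM. A gene was called when the log2 change passed 1 in the same direction in both KO libraries. That call carries no p-value, because each WT stage had 1 library.

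The 8 genes took 18101 reads (0.150% of the library) in WT at E7.5 and 15946 (0.127%) at E8.5. In KO1 they took 5544 reads (0.0676%) and in KO2 8305 (0.0692%). Set against WT of the same age, the median log2 change of the 8 was -1.11 for KO1 and -1.48 for KO2, beside -0.01 and 0.00 over all genes kept. With the E7.5 library as reference the medians became -1.52 and -1.94, beside 0.02 and 0.07 over all genes. Both comparisons use the same KO libraries, so they are not separate evidence. For all 8 genes both KO levels lay below both WT levels, as they did for 17.6% of all genes. By the threshold of 1, Rbp4, Fga, Fgb and Fgg were called lower than E8.5 WT, which is 4 of 8 beside 1.79% of all genes. Ttr and F2 were added against E7.5 WT, which is 6 of 8 beside 2.70% of all genes. The 4 genes called against E8.5 WT were also those that passed the threshold against both WT libraries, beside 0.361% of all genes. No member was called higher in either comparison, beside 3.44% of genes against E8.5 WT and 6.91% against E7.5 WT.

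**Figure D1:**
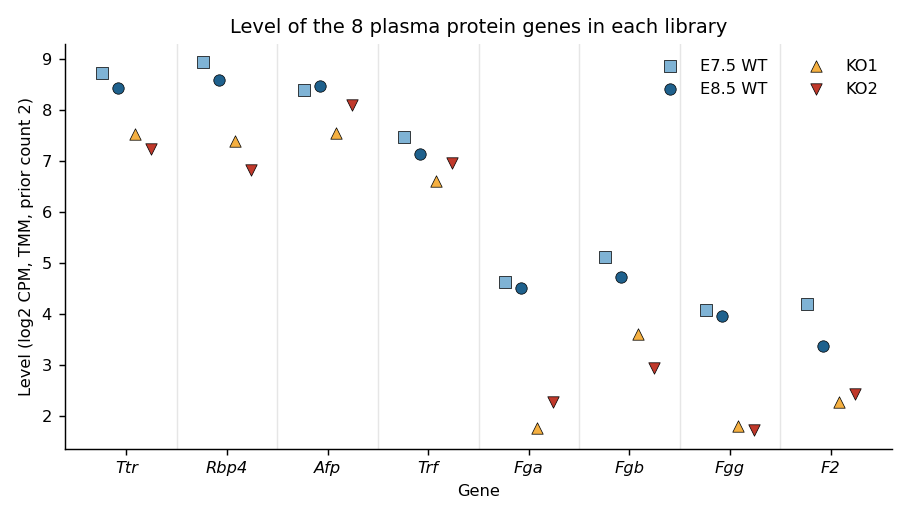
Level of each of the 8 genes in each library, as log2 CPM with TMM normalization and a prior count of 2. Each symbol is 1 library (square, E7.5 WT; circle, E8.5 WT; upward triangle, KO1; downward triangle, KO2). For each of the 8 both KO symbols lie below both WT symbols, as do the levels of 17.6% of all genes kept.

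Of the 3 fibrinogen genes, Fga and Fgg had the largest mean log2 changes among the 8, and Fgb stood close to Rbp4. The 3 lie side by side on chromosome 3 (GRCm38): Fgg at chr3:83007724-83015049 on the plus strand, Fga at chr3:83026076-83033627 on the plus strand, and Fgb at chr3:83040141-83049863 on the minus strand. Fga, the α chain gene, had 292 reads in WT at E7.5 and 278 at E8.5, against 27 in KO1 and 57 in KO2. From a level of 22.6 CPM in E8.5 WT, with 3.22 and 4.68 CPM in the KO libraries, it was 7.04-fold lower in KO1 and 4.84-fold lower in KO2. Its log2 change was -2.49 ± 0.37 (SD, n = 2) against E8.5 WT and -2.61 ± 0.37 (SD, n = 2) against E7.5 WT.

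Fgg, the γ chain gene, had 198 and 190 reads in the E7.5 and E8.5 WT libraries, and 28 and 38 in KO1 and KO2. Its level of 15.5 CPM in E8.5 WT was 4.64-fold that of KO1 and 4.96-fold that of KO2, the closest agreement between the KO libraries among the 8 genes (log2 change -2.20 ± 0.06, SD, n = 2). Fgb, the β chain gene, had 410 and 323 reads in the WT libraries, and 101 and 91 in KO1 and KO2. It was 2.19-fold lower in KO1 and 3.52-fold lower in KO2 than in E8.5 WT, a log2 change of -1.45 ± 0.48 (SD, n = 2). For these 3 genes, as for all 8, both KO levels in CPM lay below both WT levels, beside 17.6% of all genes. At such counts the 95% intervals that cover counting error alone were wide: for Fga in KO1 the log2 ratio was -2.82, with an interval from -3.44 to -2.24. The gene just beyond the cluster on the Fgb side, Plrg1, which encodes a splicing factor, had 1681 and 1461 reads in the E7.5 and E8.5 WT libraries, and 851 and 1226 in KO1 and KO2. Its log2 changes of -0.23 and -0.24 against E8.5 WT did not pass the threshold. The nearest gene on the other side, Lrat, had at most 3 reads in any library.

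The stretch just before the transcription start is shown for the 3 fibrinogen genes because they lie together and were called together, and for Afp as a gene of the same tissue that was not called. Each is 120 bases on the strand of the gene from RefSeq (GRCm38.p6), ending at the base before the RefSeq start. For Fga that start and the marked site lie inside the gene span given above, which came from another annotation (GENCODE). Capitals mark the HNF1 half-site GTTAAT or its reverse complement ATTAAC.
Fgg, chr3:83007604-83007723, plus strand: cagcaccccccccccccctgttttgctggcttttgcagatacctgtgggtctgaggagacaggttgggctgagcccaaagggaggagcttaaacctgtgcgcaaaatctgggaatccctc
Fga, chr3:83026033-83026152, plus strand: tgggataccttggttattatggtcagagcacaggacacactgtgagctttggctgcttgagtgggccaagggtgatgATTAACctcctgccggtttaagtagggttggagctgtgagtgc
Fgb, chr3:83049864-83049983, minus strand: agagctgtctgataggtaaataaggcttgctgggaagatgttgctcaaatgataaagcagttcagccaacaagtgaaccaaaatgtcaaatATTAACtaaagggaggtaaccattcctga
Afp, chr5:90490594-90490713, plus strand: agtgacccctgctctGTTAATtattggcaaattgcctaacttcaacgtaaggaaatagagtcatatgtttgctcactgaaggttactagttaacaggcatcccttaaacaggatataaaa

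HNF1 factors are homeodomain regulators of liver, kidney and visceral endoderm genes. Over the 250 bases before the start, searched on both strands, the half-site was found in 3 of the 7 windows of 6 matched members. Its first base lay 43 bases before the start in Fga, 29 in Fgb and 105 in Afp. It was present in 6.43% of all 32851 RefSeq windows of that length. The C/EBP core TTGCNNAA (9.56% of all windows) and the FOXA core TGTTTNC (17.8%) each occurred in 4 member windows, those of Fga, Fgb, Afp and a window of Rbp4. TATAAA (12.4%) occurred in Afp and Rbp4. The HNF4 half-site CAAAGT (12.6%) was found in none of the member windows. The same held for AGATAA (9.99%), the core bound by zinc-finger factors such as Gata4. Fgg and F2 held none of the 6 words, and Afp, which was not called, held 4. A match is a description of letters only, and no match says nothing of a factor. Trf and Ttr were not searched.

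Fga and Fgg were lower relative to Fgb in the KO libraries. The reads of Fga came to 71.2% of those of Fgb in WT at E7.5 and 86.1% at E8.5, against 26.7% for KO1 and 62.6% for KO2. Those of Fgg came to 48.3% and 58.8% in the WT libraries, and 27.7% and 41.8% in KO1 and KO2. Neither ratio overlapped between WT and KO, but how often other gene pairs do so was not computed. The reads of Fga relative to Fgg did overlap, at 147% and 146% in the WT libraries and 96.4% and 150% in KO1 and KO2. Such ratios within a library do not depend on normalization. As shares of the 3 genes' reads, Fga made up 35.1% of 791 reads in E8.5 WT (exact Clopper-Pearson 95% interval 31.8 to 38.6). It made up 17.3% of 156 reads in KO1 (11.7 to 24.2) and 30.6% of 186 in KO2 (24.1 to 37.8). The KO1 interval lay below that of E8.5 WT, whereas that of KO2 overlapped it. The share of Fgb was 40.8% in E8.5 WT, with 64.7% for KO1 and 48.9% for KO2. For Fgg the E8.5 WT interval (21.1 to 27.2) overlapped those of KO1 (12.3 to 24.9) and KO2 (14.9 to 26.9). Per length of the longest annotated RefSeq-matched transcript, the α, β and γ chains held 33.8%, 32.2% and 34.0% of the summed level in E7.5 WT. In KO1 Fga held 19.7% and Fgg 30.3%, with Fgb at the rest, and the 3 shares were 32.5%, 35.3% and 32.2% in KO2. Of the read shares, only that of Fgb in KO1 (interval 56.7 to 72.2) was clear of the intervals of all other libraries. The Fgb interval of KO2 was 41.5 to 56.3. For Fga the KO1 interval narrowly overlapped that of KO2.

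**Figure D2:**
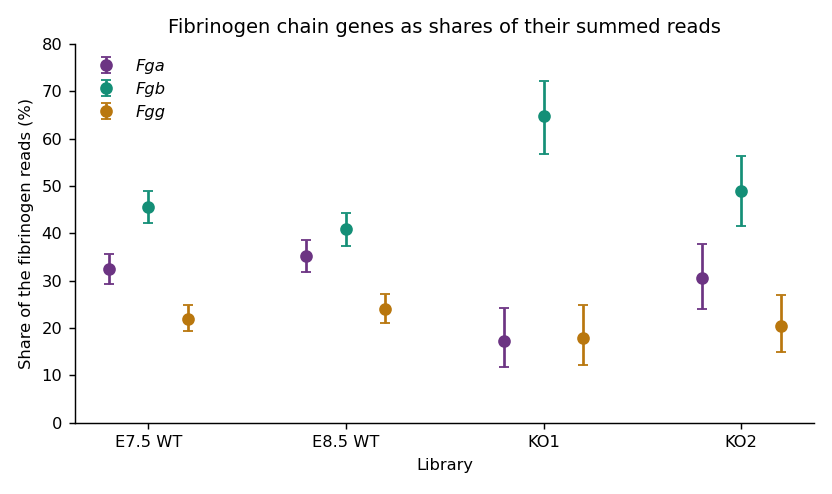
Reads of Fga, Fgb and Fgg as percent of their sum in each library, with exact Clopper-Pearson 95% intervals that cover counting error only. Fga is at 17.3% and Fgb at 64.7% in KO1, while the KO2 intervals overlap those of E8.5 WT.

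F2, the prothrombin gene (chr2:91625320-91636414, minus strand), had 216 and 126 reads at the WT stages, 39 in KO1 and 64 in KO2. It was 2.21-fold lower in KO1 and 1.95-fold lower in KO2 than in E8.5 WT, a log2 change of -1.03 ± 0.12 (SD, n = 2), and KO2 missed the threshold at -0.94. Against E7.5 WT the change was larger, at -1.84 ± 0.12 (SD, n = 2). F2 had the largest difference between the WT stages among the 8, at -0.81 from E7.5 to E8.5. Its reads relative to those of Ttr overlapped between WT (4.29% and 2.99%) and KO (2.52% and 3.50%). Fibrinogen relative to Ttr did not: it came to 17.9% and 18.8% in the WT libraries, and to 10.1% and 10.2% in KO1 and KO2. How often other gene pairs do so was not computed.

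Ttr and Rbp4, whose products circulate as a complex, were among the most abundant of the 8 in WT. Ttr (chr18:20665280-20674321, plus strand) had 5039 reads at E7.5 and 4216 at E8.5 in WT, and 1550 and 1827 in KO1 and KO2. The corresponding levels were 424, 343, 185 and 150 CPM, with the lowest in KO2. Its log2 change was -1.04 ± 0.21 (SD, n = 2) against E8.5 WT, with KO1 short of the threshold at -0.89, and -1.35 ± 0.21 (SD, n = 2) against E7.5 WT. Rbp4 (chr19:38116629-38125281, minus strand) had 5817, 4720, 1417 and 1372 reads in the same order. Its level of 384 CPM in E8.5 WT was 2.28-fold that of KO1 and 3.41-fold that of KO2, a log2 change of -1.48 ± 0.41 (SD, n = 2). Rbp4 was also lower relative to Ttr, at 115% and 112% of the Ttr reads in the WT libraries and 91.4% and 75.1% in KO1 and KO2.

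Afp and Trf differed least. Afp (chr5:90490737-90508907, plus strand) had 4012 reads at E7.5 and 4355 at E8.5 in WT, and 1566 and 3332 in KO1 and KO2. Its levels were 337, 354, 186 and 273 CPM, so that KO2 stood 1.47-fold above KO1, and relative to E8.5 WT its mean log2 change was -0.65 ± 0.39 (SD, n = 2). It was the only one of the 8 with a higher level in E8.5 WT than in E7.5 WT, by 0.07. The neighbours of Afp on chromosome 5 were nearly silent: Alb, the albumin gene, had 1 read in each KO library and 0 in WT, and Afm had 0 in every library. Trf (chr9:103204001-103230444, minus strand) had 2117, 1738, 816 and 1524 reads in the same order. Relative to E8.5 WT the log2 change of Trf was -0.54 for KO1 and -0.18 for KO2, with a mean of -0.36 ± 0.26 (SD, n = 2). Trf was higher relative to Ttr in the KO libraries, at 52.6% and 83.4% of the Ttr reads, against 42.0% and 41.2% in WT. The members thus did not move in equal steps, from 1.13-fold lower for Trf in KO2 to 7.04-fold lower for Fga in KO1.

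**Figure D3:**
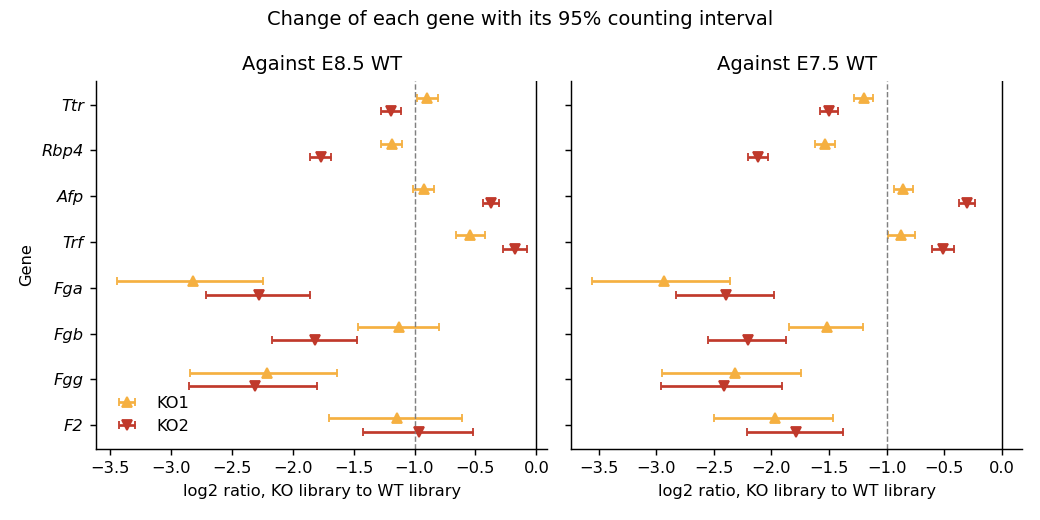
The log2 ratio of each KO library to E8.5 WT (left) and to E7.5 WT (right) for the 8 genes, without a prior count, with exact 95% intervals for counting error only. The dashed line marks -1, and all intervals lie below 0, with Trf and Afp in KO2 nearest to it.

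Between the KO libraries no member differed by more than 1 on the log2 scale, as did 10.9% of all genes. Ttr, Rbp4 and Fgb were lower in KO2 than in KO1 by more than counting error, and Afp and Trf were higher. For Fga, Fgg and F2 the counting interval of the difference included 0. Between E7.5 WT and E8.5 WT no member differed by more than 1 either, beside 20.0% of all genes. The intervals lay below 0 for Ttr, Rbp4, Trf, Fgb and F2, above 0 for Afp, and included 0 for Fga and Fgg.

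**Figure D4:**
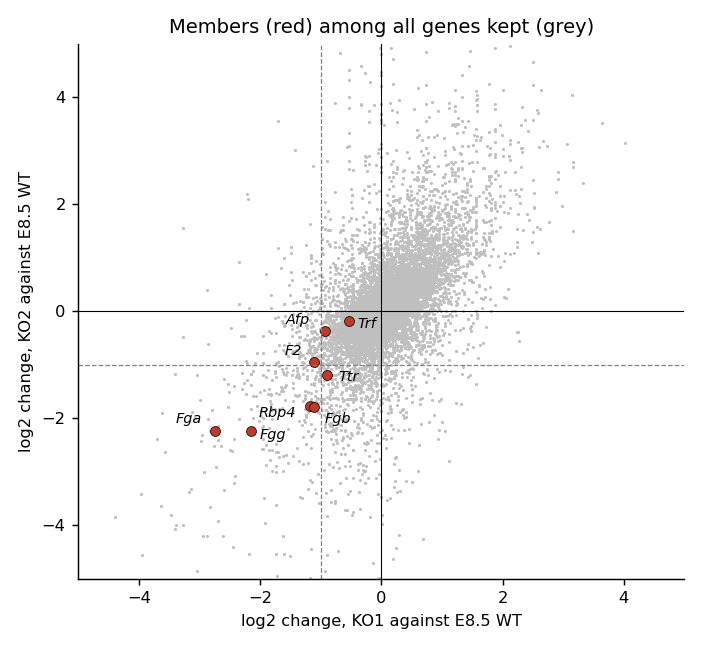
The log2 change of KO1 (horizontal) and KO2 (vertical) against E8.5 WT for the 8 genes (red) among the 14393 genes kept (grey), with dashed lines at -1; 59 genes lie outside the axes. The axes share the E8.5 WT library, so the slope of the cloud is partly built in, and Rbp4, Fga, Fgb and Fgg lie beyond both dashed lines.

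The differences were also tested across all genes kept. In edgeR's quasi-likelihood test against either WT stage, only KO1 and KO2 gave an estimate of the spread, with 1 residual degree of freedom. The lone WT libraries were assumed to vary alike. With Benjamini-Hochberg adjustment the test called 0 genes (0%) against E8.5 WT at an adjusted p under 0.05, so no member was called. At an unadjusted p under 0.05 it picked 1052 genes. Lower in KO were 6 of the 8 (all but Afp and Trf), beside 2.96% of all genes. Against E7.5 WT it called 0 genes after adjustment and picked 3511 at an unadjusted p under 0.05. Lower were 7 of the 8 (all but Afp), beside 10.6% of all genes. The members' adjusted p lay between 0.666 and 0.672 against E8.5 WT and between 0.128 and 0.276 against E7.5 WT in edgeR.

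DESeq2's Wald test, in its place, called 31 genes against E8.5 WT. These included Rbp4 (adjusted p = 5.63e-05) and Ttr (adjusted p = 0.00340) among genes lower in KO, beside 0.118% of all genes in that direction. For Fga the adjusted p was 0.0921 in DESeq2. Against E7.5 WT DESeq2 called 728 genes, among them Ttr, Rbp4, Fga, Fgb and Fgg, beside 2.72% of genes called lower. With both WT libraries as 1 group it called 32 genes, among them Ttr, Rbp4, Fga and Fgg, beside 0.139% of genes called lower. In that grouping edgeR called 0, and picked 565 at an unadjusted p under 0.05. The spread within WT then includes the day of development between E7.5 and E8.5. The call for a member therefore depended on the test. Its direction was set by the counts, which were the same for both tests.

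Levels were compared between the genes per kilobase of transcript. In E8.5 WT the order was Rbp4 (331 CPM per kilobase), Ttr (289), Afp (172) and Trf (55.0), followed by Fgg (8.88), Fga (8.74), Fgb (6.90) and F2 (5.16). Counting intervals (exact Poisson, 95%) of neighbours in that order overlapped only between Fgg and Fga. In KO1 Ttr led with 156 CPM per kilobase, and its interval overlapped that of Rbp4 (145). In KO2 Afp led with 133, and its interval overlapped that of Ttr (126), while Rbp4 came after both with 97.0. Fibrinogen and prothrombin genes were at the low end in every library, with at most 3.16 CPM per kilobase in the KO libraries.

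The label of visceral endoderm was checked with genes of its absorptive machinery, which take part in uptake rather than secretion. Cubn, the cubilin receptor, had 28998 and 26884 reads in the E7.5 and E8.5 WT libraries, and 13997 and 19354 in KO1 and KO2. Amn, its partner amnionless, had 3273, 1585, 953 and 1789 in that order. The adaptor gene Dab2 had 12040, 9455, 5946 and 8178 reads, and Lrp2, the megalin receptor, had 4990, 9226, 5352 and 6087. Every library thus had at least 953 reads of each of these 4 genes. The marker set for this tissue also held Hnf4a, Apoa1 and Apob. Against E8.5 WT the log2 changes in KO1 and KO2 were -0.07 and -0.03 for Hnf4a and -1.82 and -1.74 for Apoa1. Apob, with 38222 reads in E8.5 WT and 14125 and 18530 in KO1 and KO2, had -0.89 and -1.03. Of 22 absorption markers, 0 were called lower and 0 higher than E8.5 WT, and their median log2 changes were -0.17 in KO1 and -0.20 in KO2. Against E7.5 WT 7 of 22 were called lower, with medians of -0.83 and -0.70. Their summed level was 8508 and 6672 CPM at the WT stages, 5893 in KO1 and 5985 in KO2.

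The 8 genes were also lower when scaled to these markers in the same library, a scaling chosen after the values were seen. Their reads came to 17.9% of the summed reads of the 22 markers at E7.5 and 19.4% at E8.5 in WT, against 11.2% for KO1 and 11.4% for KO2. The fibrinogen reads came to 0.889% and 0.965% in the WT libraries, and to 0.315% and 0.255% in KO1 and KO2. For 7 of the 8 genes the KO values lay below both WT values, with overlap for Afp, beside 4.04% of all genes scaled in the same way. Trf was within that count by a narrow margin, at 2.09% both at E7.5 in WT and for KO2. With Amn, Cubn and Dab2 alone as the scale it was 6 of 8, with overlap for Afp and Trf, beside 2.07% of all genes. Fibrinogen then came to 2.03% and 2.09% in WT and to 0.747% and 0.634% in KO.

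Transcription factors of liver and visceral endoderm were not called lower than E8.5 WT. Of 20 such genes kept, 0 were called in either direction against E8.5 WT, with medians of 0.38 in KO1 and 0.25 in KO2. Hnf4a had 1578 reads in WT at E8.5, and 1029 and 1536 in KO1 and KO2, with log2 changes of -0.07 and -0.03. For Foxa2 the changes were 0.22 and 0.91. Against E7.5 WT, Cebpa and Creb3l3 were called lower and Nr5a2 higher. Genes for the secretory pathway through which plasma proteins leave the cell were not called either, with 0 of 20 past the threshold in both comparisons and medians of 0.05 and -0.04 relative to WT at E8.5.

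Of the lists of other secreted proteins, the apolipoproteins had the lowest medians, -0.66 in KO1 and -0.56 in KO2 against WT at E8.5. Of 12 genes for apolipoproteins and lipoprotein assembly, 4 were called lower than E8.5 WT and 0 higher, and 7 were lower than E7.5 WT. Apoa1, the main protein of high-density lipoprotein, had 12148, 6739, 1302 and 2002 reads, and its log2 changes against E8.5 WT were -1.82 and -1.74. Apoa2 had -1.90 and -2.50, Apoc3 had -2.07 and -1.59, and Apom had 1366 reads in E8.5 WT, with 465 and 656 in KO1 and KO2. Apoe, at -0.18 and -0.28, and P4hb, at -0.01 and -0.02, did not pass the threshold.

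Genes of the clotting pathway other than the members did not move together. Of 9 other coagulation factor genes kept, 0 were called against E8.5 WT, and Kng1 alone was called lower than E7.5 WT, on 12 reads at most. F10, which activates prothrombin, had changes of 0.32 and 0.28, and F5, its cofactor, had 0.70 and 1.51. F9, F11, F12, F13b and Klkb1 had 0 reads. Of 16 genes for anticoagulants and fibrinolysis, Proc, Plg and Serpinf2 were called lower than E8.5 WT. Plg, which encodes the plasmin precursor, had 178 reads in WT at E8.5, and 59 and 80 in KO1 and KO2. Serpinf2, the plasmin inhibitor, had 307, 87 and 101. Some genes of this list stood apart in KO2: Tfpi had 3594 reads there and between 227 and 363 elsewhere, and Thbd had 838 there and between 20 and 56 elsewhere. Among 13 receptors of fibrinogen and thrombin, Itgam alone was called against E8.5 WT, with 0 reads in WT and 2 and 13 in KO, and Itgam and Cdh5 were called higher than E7.5 WT. F2r, the thrombin receptor, had changes of 0.38 and -0.28.

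Of 32 other plasma protein genes, 13 passed the filter, and among these Cfb was called lower and Itih2 and A2m higher than E8.5 WT. Cfb, complement factor B, had 123 reads in WT at E8.5, and 26 and 44 in KO1 and KO2. Genes that act with the carrier proteins were not called lower than E8.5 WT. Among 12 genes of retinol and thyroid hormone transport 0 were called in either comparison. Stra6, the cell receptor for Rbp4 protein, had changes of -0.66 and -2.13. Among 15 genes of iron handling Tfr2 and Hfe were called higher than E8.5 WT, both with at most 20 reads. Tfrc, the transferrin receptor, had changes of -0.72 and -0.47. Against E7.5 WT, Fth1 (-1.20 in KO1 and -1.16 in KO2) and Ftl1 (-1.04 and -1.10) were called lower, and Heph was called higher.

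**Figure D5:**
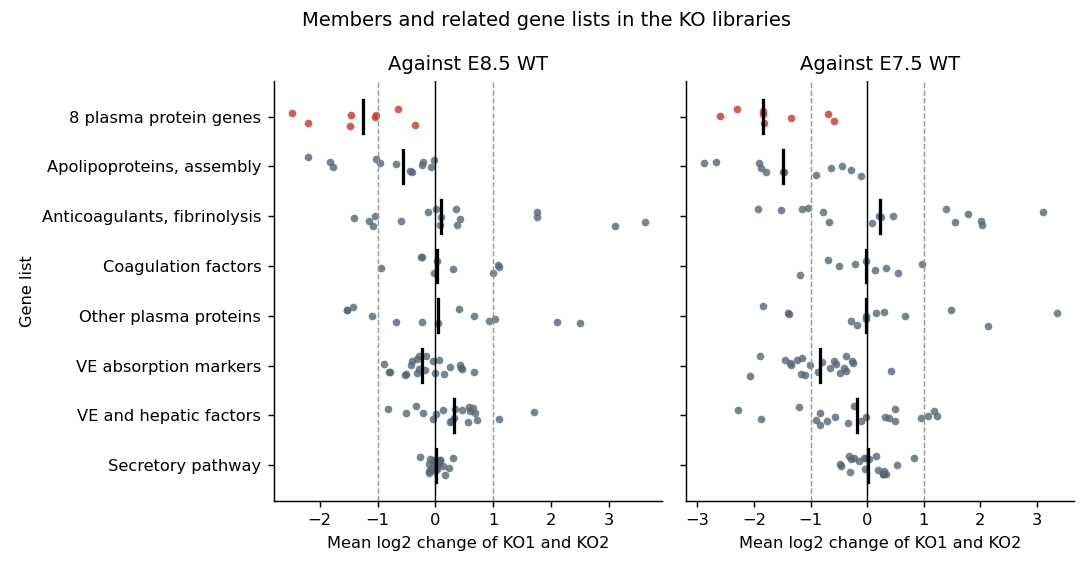
Mean log2 change of KO1 and KO2 against E8.5 WT (left) and E7.5 WT (right) for the 8 genes (red) and for genes of related lists (grey), 1 point a gene, with a bar at each list's median and dashed lines at -1 and 1. All 8 genes lie below 0 in both panels, while against E8.5 WT the medians in the separate KO libraries are -0.17 and -0.20 for absorption markers and 0.38 and 0.25 for transcription factors. VE, visceral endoderm.

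Markers of other cell types differed between the libraries, and their part in the results above was not tested. Trophoblast giant cell transcripts stood apart in KO2, where Prl3d1 had 4156 reads, against 27 and 1 in the WT libraries and 3 in KO1. The summed level of 12 trophoblast and ectoplacental markers was 719 and 393 CPM at the WT stages, 677 in KO1 and 1089 in KO2, with Prl3d1 and Prl2c2 among 8 kept called higher than E8.5 WT. The decidual gene Prl8a2 had 1318 reads in E7.5 WT and 1433 in KO2, against 26 and 64 in E8.5 WT and KO1, and against E8.5 WT it was the only one of 7 decidua markers called. Against E7.5 WT Prl3c1, with 135 reads there and 0 and 25 in KO, was called lower. Their summed level over the 7 was 166 and 66.0 CPM at the WT stages, 103 in KO1 and 180 in KO2. Adult globin genes had 0 reads in all libraries, and 1 of 11 markers of maternal blood passed the filter, with 0 called. Of 10 primitive erythroid genes kept, 8 were called lower than E8.5 WT and 0 higher. Of 11 genes of definitive and gut endoderm, Nepn and Pyy were called lower and Trh and Cer1 higher than E8.5 WT. Parietal endoderm (13 genes) and extraembryonic mesoderm with yolk sac endothelium (10 genes) had 0 called in both KO libraries against E8.5 WT.

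The genes whose levels over the 4 libraries most resembled the mean fibrinogen profile were sought among 11214 genes with a mean of at least 50 reads, by Euclidean distance between centred log2 CPM values. Car7, a carbonic anhydrase gene, came first at a distance of 0.464, followed by Apoa1 (0.510) and Serpinf2 (0.551). 9130019O22Rik, Tdh, Apoa2, Pdk1, Cfb and S100g were also among the nearest 10. Car7 had 2458 and 2343 reads at the WT stages, and 546 and 501 in KO1 and KO2. Among the members themselves Rbp4 lay at 0.619 from this profile and Trf at 1.66. The mean profile of Ttr, Rbp4, Afp and Trf was most closely matched by Npl (0.0968), and Plg (0.172) and Mttp (0.253), which loads lipid onto apolipoprotein B, were also among its nearest 10. The others were Etv4, Ipp, Ccdc85b, Fam131b, Fam212a, Depdc7 and Epn1. With 4 libraries, a near profile is a description only.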

How the data were processed

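The authors deposited a table of raw read counts per gene, with no normalization, for the 4 libraries. Per the labels, a stranded mRNA kit was used, and the submitters' processing notes name cutadapt 2.8, FastQC 0.11.7, HISAT2 2.1.0, SAMtools 1.9, featureCounts 2.0.0 and the mm10 genome. Groups came from the labels.

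From these counts, TMM factors over the whole table, log2 CPM (prior count 2), edgeR 4.0.16 quasi-likelihood tests and, as the alternative, DESeq2 1.42.0 Wald tests were computed in R 4.3.3, and the scripts were tested on simulated data. For 3070 genes DESeq2 gave no adjusted p against E7.5 WT. All p-values are two-sided and, since the labels do not say how the KO pools relate, measure only the spread between these libraries. Intervals are exact at 95% and leave out all but counting error, since amplified reads carry no molecular identifiers. Positions and transcript lengths came from GENCODE (GRCm38), which matched 23376 gene symbols (95.7%), and promoters from RefSeq (GRCm38.p6). Figures were drawn with matplotlib 3.10.9 (Python 3.11.15, SciPy 1.17.1).

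The genes named are the 8 members, those of 17 lists (261 of 262 listed symbols were in the table), the neighbours of the fibrinogen genes and of Afp, and the 10 nearest profiles. Ddx6 is named besides as the targeted gene. The members and lists were chosen with earlier results of these data known. The lists were compiled from general knowledge and carry no set test. As alternatives the normalization was changed (DESeq2 size factors or library totals alone), as were the filter (none, or 50 counts), the prior count (0.5) and the threshold (2), and either KO library was left out. A few list genes and near profiles are not reported here.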

Additional observations from a re-analysis of the deposited data

How the results depend on the processing

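The mean changes of all 8 genes stayed below 0 against both WT libraries under DESeq2 size factors, plain CPM, both other filters and a prior count of 0.5, and no mean change moved by more than 0.06 (log2). Of 188 alternative values none changed direction, and 23 counts of calls moved by over 1.5 times. Without KO1 the change of Trf against E8.5 WT was -0.18 in place of -0.36 (-0.54 without KO2), and that of Afp was -0.37 in place of -0.65 against E8.5 WT and -0.30 in place of -0.58 against E7.5 WT. A threshold of 2 left 2 members (Fga and Fgg) against each WT library, and 51 genes lower and 54 higher than E8.5 WT, and 59 lower and 132 higher than E7.5 WT. A minimum of 50 counts left 130 genes lower and 259 higher than E8.5 WT and 246 lower than E7.5 WT, since fewer genes were tested. With 1 KO library left out, 5 members were called lower than E8.5 WT and 6 than E7.5 WT. Over all genes, the calls then numbered from 476 (without KO2) to 850 (without KO1) lower and from 716 to 1354 higher than E8.5 WT. They numbered from 584 (without KO1) to 1072 (without KO2) lower and from 1564 to 1893 higher than E7.5 WT, since 1 library has to pass in place of both. The edgeR counts of 0 became 8 against E8.5 WT and 728 against E7.5 WT with no filter, the latter with 6 members (all but Afp and Trf). The DESeq2 counts in their place were 31, 728 and, against both WT libraries, 32. In edgeR the last became 51 without KO1 and 1 without KO2, with 0 members in either. The cause was not tested. No paired analysis was possible because only the KO group has replicate numbers. Depth limits Fga, Fgg and F2 most, with 27 to 64 reads in the KO libraries.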
